A study of Mus musculus with 4 samples.

Results

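A set of 10 NF-κB pathway genes was followed through endothelial cells (ECs) and mural cells of the mouse left ventricle, in mice kept on a control regimen (NC) or on a regimen that produces heart failure with preserved ejection fraction (HFpEF). The 10 genes were taken by their symbols from the 31253 genes in the feature table, and each symbol named 1 gene. They are 4 subunits (Nfkb1, Nfkb2, Rela and Relb), 3 feedback inhibitors (Nfkbia, Tnfaip3 and Nfkbiz), a ubiquitin ligase (Birc3), an adaptor (Traf1) and a ligand (Tnf). In short, Tnf was higher in HFpEF than in NC artery ECs, the difference between the diets that passed the test among the members, with a log2 fold change of 1.08 (SE 0.158, 2 libraries against 2). That call was lost when each cell was assigned by its own markers and at a coarser clustering. Tnf also lay higher in both HFpEF libraries in all ECs, capillary ECs, vein ECs and mural cells, without passing the test there. The mRNAs of the 4 subunits and of Nfkbia, the most abundant member, did not pass the test in any class, with absolute log2 fold changes of at most 0.33. Tnfaip3 lay higher in both HFpEF libraries in all ECs, capillary ECs and vein ECs without passing the test there. On class sums its diet difference was smaller in artery than in capillary ECs by a test of that difference. That call was lost under several alternatives, such as another clustering or thinned cells. Within the cell clusters of these classes, Tnfaip3 was higher in both HFpEF libraries in artery clusters 2, 4 and 9. Among capillary clusters this was so only in clusters 5 and 6.

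NF-κB is a family of dimeric transcription factors that wait in the cytoplasm, bound by inhibitors of the IκB kind, until a receptor signal leads to the destruction of the inhibitor. Nfkb1 and Nfkb2 encode precursors that are cut to p50 and p52, and Rela and Relb encode subunits that activate transcription. Rela belongs mainly to the classical arm and Relb, with p52, to the alternative arm. In ECs the pathway switches on leukocyte adhesion molecules, chemokines and cytokines. It also switches on its own brakes, among them Nfkbia (IκBα, which holds the dimers in the cytoplasm) and Tnfaip3 (A20, a ubiquitin-editing enzyme that damps the receptor complexes). Nfkbiz encodes a nuclear IκB that modulates transcription at selected targets. It is counted with the inhibitors here although it can also activate genes. Birc3 (cIAP2) and Traf1 act at the TNF receptors, and Tnf encodes tumor necrosis factor, both an inducer and a target of the pathway.

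The data are 4 single-cell RNA libraries of RFP-positive cells sorted by FACS from the left ventricle. Of these, 2 are from NC mice (a rodent diet with 10% of its energy from fat). The other 2 are from HFpEF mice (60% fat, with 0.5 mg/ml of the nitric oxide synthase inhibitor L-NAME in the water). The 2 regimens are called the diets here, so a difference between the diets is one of fat and L-NAME together. All mice carried the R26-stop-tdTomato reporter and Cdh5-CreER, a Cre driven by an endothelial cadherin promoter and switched on by tamoxifen at 7 weeks of age, together with a floxed allele of Scarb1, which encodes SR-B1. The genotypes were Sfl/fl/RΔEC and Sfl/+/RΔEC, so that every mouse had lost at least 1 copy in the recombined cells. The labels of the libraries give the diet and no genotype. The study describes 4 groups of mice, 2 diets by 2 genotypes, and 4 libraries are present, so libraries on the same diet may not share a genotype. A difference between the libraries of a diet may then also be one of genotype, which was not tested. The regimen lasted 20 weeks in the lineage-tracing mice of the study, the time is not in the labels of these libraries, and the number of mice behind a library is not given in the sources used here. The p-values therefore measure only the spread between these libraries.

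Promoter sequences show which members carry the letters of the binding site of the pathway itself. Of the 10 members, 7 had an entry in the RefSeq promoter table for GRCm38.p6 (10 promoters of 300 bases in all), and Nfkb1, Relb and Nfkbiz had none. The κB consensus, a motif of 10 letters searched on both strands, was found in 5 of these 10 promoters. They belong to 3 of the 7 genes, Tnfaip3, Nfkbia and Nfkb2. Promoters 2 and 3 of Nfkb2 (chr19:46305445-46305744 and chr19:46305680-46305979) overlap and share a match, which is counted in both. The consensus was present in 1480 of all 32851 promoters (4.51%), a share by promoter and not by gene. The following 4 are shown because the results below turn on these genes. Capitals mark the matches, read 5′ to 3′ on the strand of the gene. In Nfkb2 the earlier match is a pair of overlapping matches, found on both strands. The Tnf promoter has no match to these letters in its window, which says nothing of other sites.
Tnfaip3, chr10:19015361-19015660, minus strand: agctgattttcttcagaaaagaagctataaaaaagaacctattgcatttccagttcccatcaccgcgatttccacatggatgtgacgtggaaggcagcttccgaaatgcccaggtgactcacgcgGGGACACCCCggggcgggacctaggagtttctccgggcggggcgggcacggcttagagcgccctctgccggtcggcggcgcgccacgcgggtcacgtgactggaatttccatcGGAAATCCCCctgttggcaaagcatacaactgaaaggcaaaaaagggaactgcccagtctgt
Nfkbia, chr12:55492598-55492897, minus strand: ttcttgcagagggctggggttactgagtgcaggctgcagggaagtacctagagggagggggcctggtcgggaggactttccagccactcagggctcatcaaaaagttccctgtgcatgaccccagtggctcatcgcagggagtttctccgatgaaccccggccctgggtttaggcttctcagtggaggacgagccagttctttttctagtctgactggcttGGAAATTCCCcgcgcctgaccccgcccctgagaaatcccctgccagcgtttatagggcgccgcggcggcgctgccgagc
Nfkb2, chr19:46304487-46304786, plus strand: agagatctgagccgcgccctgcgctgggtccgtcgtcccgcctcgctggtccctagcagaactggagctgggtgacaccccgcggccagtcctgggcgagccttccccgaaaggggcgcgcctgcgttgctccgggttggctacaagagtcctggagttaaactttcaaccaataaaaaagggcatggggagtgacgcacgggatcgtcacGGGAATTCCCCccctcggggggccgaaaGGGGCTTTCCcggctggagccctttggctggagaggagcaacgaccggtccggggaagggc
Tnf, chr17:35201958-35202257, minus strand: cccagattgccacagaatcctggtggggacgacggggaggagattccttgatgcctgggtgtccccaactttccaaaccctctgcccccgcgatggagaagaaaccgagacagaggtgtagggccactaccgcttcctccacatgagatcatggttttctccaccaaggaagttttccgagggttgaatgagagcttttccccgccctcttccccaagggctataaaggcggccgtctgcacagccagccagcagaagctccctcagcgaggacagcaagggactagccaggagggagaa

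Counted from the 5′ end of each stretch, the matches lie at bases 126 to 135 and 239 to 248 in Tnfaip3, at bases 222 to 231 in Nfkbia, and at bases 212 to 222 and 240 to 249 in Nfkb2. In this annotation of GRCm38 the gene bodies are chr10:19000910-19015657 for Tnfaip3, chr12:55489410-55492647 for Nfkbia, chr19:46304320-46312385 for Nfkb2 and chr17:35199381-35202007 for Tnf. A match describes the letters of the window and does not show that a factor binds there.

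Of 41843 barcodes, 40154 had more than 200 genes and less than 20% mitochondrial UMIs (unique molecular identifiers, which count captured molecules). The kept cells numbered 5454 to 20882 per library and held 10801149 to 47117650 UMIs. Between 10 and 42 barcodes were shared by any pair of libraries, at most 0.728% of the smaller. The NC libraries had a median of 3754 and 4127 UMIs per kept cell and the HFpEF libraries of 1736.5 and 1619, so depth per cell and diet cannot be told apart by design. Cells were clustered without the members, and clusters were named from fixed marker genes. Artery, vein, lymphatic, endocardial, proliferating and mural cells were recognized by an excess of their own markers, and the remaining endothelial clusters were taken as capillary-like. The classes are called capillary, artery, vein and mural below. Counts were summed per library over the cells of a class and are given in CPM, the UMIs of a gene scaled to the same total in each class and library. All ECs held 6187, 5632, 3885 and 15032 cells in NC libraries 1 and 2 and HFpEF libraries 1 and 2. A further 6032 shallow cells in a cluster led by cardiomyocyte transcripts such as Myl3, and 1212 in another shallow cluster, stayed unnamed and out of all ECs.

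Most of the sorted cells were placed in endothelial classes. The 6 endothelial markers, among them Pecam1 and Cdh5, summed to 5025 to 5832 CPM in all ECs. The T-cell markers summed to at most 0.153 CPM and the 5 cardiomyocyte markers to 46.7 to 210 CPM. Immune clusters had been set apart by such marker lists, so the low T-cell sum does not test the label. Mural cells (pericytes and smooth muscle cells, which wrap the vessels) made up 285, 396, 282 and 732 cells. Their 8 mural markers summed to 12410 to 15096 CPM, and the 6 endothelial markers still reached 2795 to 3184 CPM in them. Hence a mural value contains endothelial transcripts to an extent that was not tested.

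The members spanned a wide range of levels in all ECs. Each UMI stands for a molecule read at its 3′ end, so levels of different genes were compared in CPM without a correction for length. Nfkbia ranked highest, at 1325 to 1631 CPM over the 4 libraries, followed by Nfkbiz at 153 to 217 CPM. Rela (71.7 to 82.8 CPM) and Nfkb1 (70.4 to 81.7 CPM) came next, with overlapping ranges. Relb (37.8 to 49.8 CPM), Nfkb2 (32.0 to 42.7 CPM) and Tnfaip3 (27.0 to 57.1 CPM) overlapped each other, as did Birc3 (26.4 to 34.5 CPM) with Nfkb2 and Tnfaip3. Tnf had the widest range in relation to its level (32.0 to 79.1 CPM) and overlapped every member from Birc3 up to Rela and Nfkb1. Traf1 was lowest, at 3.03 to 4.58 CPM, below every other member in every library.

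**Figure D1:**
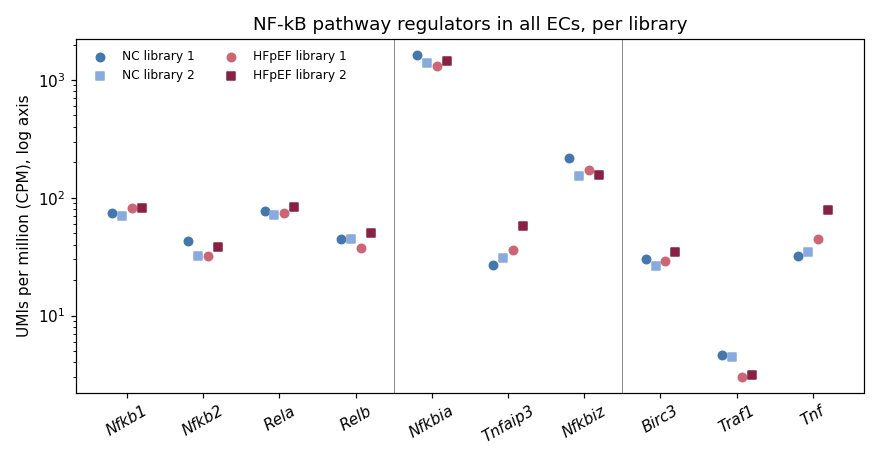
Level of each member in all ECs, in CPM on a log axis, with a point per library (2 NC libraries in blue, 2 HFpEF libraries in red) and lines between subunits, feedback inhibitors and the other members. Both HFpEF points lie above both NC points for Nfkb1, Tnfaip3 and Tnf and below them for Traf1, and the diets overlap for the other 6 genes.

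The question put to each member was whether its mRNA differed between the diets within a cell class. Differences were tested with edgeR's quasi-likelihood test on the whole table of summed counts, adjusted by Benjamini-Hochberg, with an adjusted p under 0.05 as a call. In all ECs 0 of 10 members were called, and 0.0693% of the 12980 genes tested. At an unadjusted p under 0.05 the members numbered 3 (Tnf, Tnfaip3 and Traf1), against 2442 of all genes (18.8%), and DESeq2 called 2 members (Tnf and Tnfaip3) and 298 of all genes. Both HFpEF libraries exceeded both NC libraries for 3 members, an order that 23.4% of all tested genes showed, and lay below them for 1 member, an order that 27.8% of genes showed. Neither count stands out from these shares. The median log2 fold change was 0.04 over the members and -0.004 over all genes tested.

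The subunits changed little. Nfkb1, the precursor of p50, was at 74.0 and 70.4 CPM in NC and at 81.2 and 81.7 CPM in HFpEF. The diets did not overlap, yet the log2 fold change of 0.19 (SE 0.0931) had an adjusted p of 0.323. Rela (p65) was at 77.7 and 71.7 CPM in NC and at 74.3 and 82.8 CPM in HFpEF, for a log2 fold change of 0.09 (SE 0.101, adjusted p = 0.674). Nfkb2, the precursor of p52, was at 42.7 and 32.1 CPM in NC and at 32.0 and 38.0 CPM in HFpEF, for a log2 fold change of -0.07 (SE 0.155, adjusted p = 0.839). Here the highest and the lowest library differed by more than the diets, and the NC libraries were themselves further apart than the HFpEF libraries. Relb was at 44.6 CPM in both NC libraries and at 37.8 and 49.8 CPM in HFpEF, for a log2 fold change of 0.00 (SE 0.127, adjusted p = 0.996), the HFpEF libraries standing on either side of NC.

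Among the feedback inhibitors, Tnfaip3 stood apart from Nfkbia and Nfkbiz. Tnfaip3 was at 27.0 and 30.8 CPM in NC (mean 28.9 ± 2.70, SD, n = 2) and at 36.2 and 57.1 CPM in HFpEF (46.6 ± 14.7). Both HFpEF libraries exceeded both NC libraries, and HFpEF library 2 was far above HFpEF library 1. The log2 fold change was 0.73 (SE 0.190), with an unadjusted p of 0.00703 and an adjusted p of 0.149 by edgeR, and with a call by DESeq2. Without HFpEF library 2 it was 0.36, and without HFpEF library 1 it was 0.98. Nfkbia was at 1631 and 1391 CPM in NC and at 1325 and 1459 CPM in HFpEF, for a log2 fold change of -0.11 (SE 0.125, adjusted p = 0.683). Nfkbiz was at 217 and 153 CPM in NC and at 171 and 156 CPM in HFpEF, for a log2 fold change of -0.17 (SE 0.173, adjusted p = 0.635). For both genes the diets overlapped, and NC library 1 was the highest of the 4 libraries.

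Among the remaining members, Tnf had the largest difference of the 10. It was at 32.0 and 34.98 CPM in NC (33.5 ± 2.09) and at 44.7 and 79.1 CPM in HFpEF (61.9 ± 24.3), where HFpEF library 2 was again the highest. The log2 fold change was 0.92 (SE 0.228), with an unadjusted p of 0.00538 and an adjusted p of 0.144. Leaving out HFpEF library 2 brought it to 0.45, and leaving out HFpEF library 1 to 1.24. Birc3, a ubiquitin ligase of the TNF receptor complex, was at 30.2 and 26.4 CPM in NC and at 29.2 and 34.5 CPM in HFpEF, with overlap and a log2 fold change of 0.20 (SE 0.116, adjusted p = 0.402). Traf1, an adaptor of that complex, was the member with both HFpEF libraries below NC, at 4.58 and 4.46 CPM in NC and at 3.03 and 3.15 CPM in HFpEF. Its log2 fold change was -0.53 (SE 0.196), with an unadjusted p of 0.0312 and an adjusted p of 0.223, on 125, 122, 26 and 124 UMIs.

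The lower depth per cell in HFpEF moved with the diet, so the share of cells with a Tnf UMI was compared after thinning each EC to 1000 UMIs. In NC 2.17% and 2.67% of ECs then held a Tnf UMI, and in HFpEF 3.55% and 6.10%, on 3633 to 13240 cells per library after 49 to 1792 shallower cells were left out. Before thinning the shares were 6.999% and 8.63% in NC, at a median of 3912 and 4282 UMIs per cell, and 6.54% and 10.8% in HFpEF, at 1944 and 1984. In classes with little or no Tnf, thinned the same way, 0 of 153 endocardial cells (which allows a share of up to 1.96%), 0 of 89 lymphatic cells (3.37%) and 1 of 118 fibroblasts (0.847%) held a Tnf UMI, at a median of 4937, 3407 and 3251.5 UMIs before thinning. With the summed counts of the thinned ECs, the log2 fold change of Tnf was 1.21 and that of Tnfaip3 was 0.88, against 0.92 and 0.73 without thinning. Thinning left out 90 and 49 ECs in NC and 252 and 1792 in HFpEF. The part of depth in these differences was not tested.

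Markers of other cell types were read in the same sums. In all ECs the 5 macrophage markers summed to 24.1 and 18.5 CPM in NC and to 19.3 and 14.8 CPM in HFpEF, nearly all of it Cd68, with Adgre1 at 0.0366 CPM in NC library 2 and at 0 in the other libraries. The 5 neutrophil markers summed to 0.110 and 0.841 CPM in NC and to 2.91 and 11.2 CPM in HFpEF, 3 of the 5 being higher in both HFpEF libraries. The 5 erythroid genes summed to 372 and 241 CPM in NC and to 509 and 1689 CPM in HFpEF, all 5 higher. Without the cells that held 1% or more hemoglobin UMIs, Tnf had a log2 fold change of 0.91 and Tnfaip3 of 0.73. The 6 capillary markers summed to 9378 and 9015 CPM in NC and to 6648 and 6201 CPM in HFpEF, all 6 lower. The 6 heat shock genes listed (Hspa1a, Hspa1b and others) summed to 10155 and 6573 CPM in NC and to 17226 and 19478 CPM in HFpEF. The part of the neutrophil, capillary and heat shock genes in the differences of the members was not tested.

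**Figure D2:**
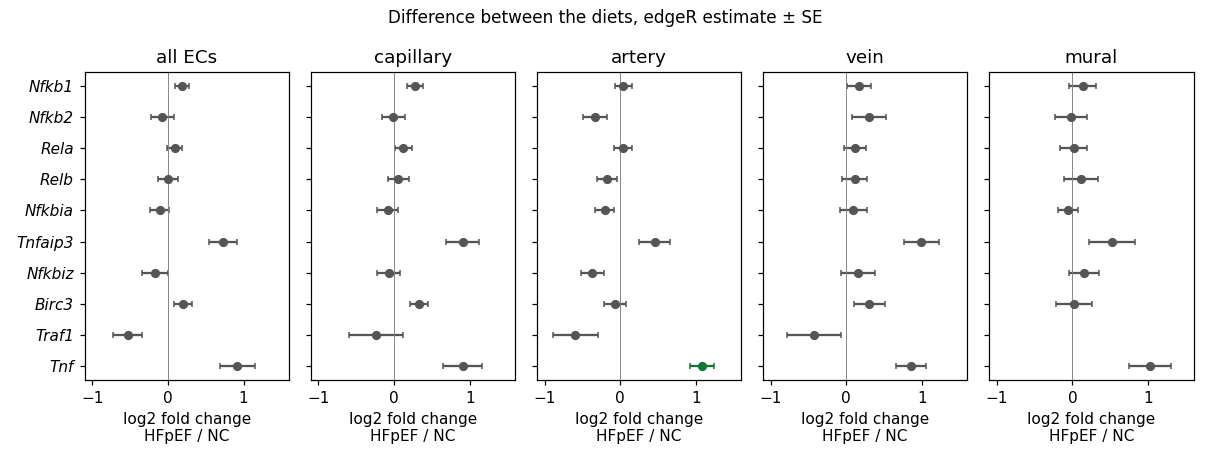
Log2 fold change of each member, HFpEF over NC, in all ECs and in 4 cell classes, as the edgeR estimate with its standard error (bars); green marks an adjusted p under 0.05 and grey the rest. Tnf lies between 0.86 and 1.08 in every class and is green in artery ECs, Tnfaip3 lies between 0.46 and 0.99, and most other members lie near 0 (Traf1 was not tested in mural cells).

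Within the classes the same comparison was made on each class's own table. In capillary ECs, the exchange vessels and the largest class, 0 of 10 members were called against 0.641% of 12017 genes, and 4 had an unadjusted p under 0.05, against 20.3% of all genes. Tnfaip3 was at 22.5 and 31.1 CPM in NC and at 37.1 and 59.7 CPM in HFpEF, for a log2 fold change of 0.91 (SE 0.218, adjusted p = 0.0896, called by DESeq2). Tnf was at 39.9 and 45.7 CPM in NC and at 52.1 and 102.9 CPM in HFpEF, for a log2 fold change of 0.91 (SE 0.256, adjusted p = 0.120). The diets separated for both, with HFpEF library 2 highest, and without that library the values fell to 0.51 and 0.32. Smaller differences were seen for Nfkb1 (68.2 and 63.2 CPM against 76.8 and 79.7 CPM, log2 fold change 0.27, adjusted p = 0.207) and for Birc3 (30.2 and 28.2 CPM against 32.4 and 38.9 CPM, log2 fold change 0.32, SE 0.120, adjusted p = 0.191). The other 6 members lay between -0.24 and 0.12, and of these Traf1 alone had no overlap, with both HFpEF libraries lower.

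In artery ECs 1 of 10 members was called, against 0.203% of 11324 genes. Tnf was at 18.5 and 14.5 CPM in NC and at 32.6 and 36.4 CPM in HFpEF, and here the 2 HFpEF libraries were close to each other. Its log2 fold change was 1.08 (SE 0.158, adjusted p = 0.0338). Over the alternatives the adjusted p reached 0.172. The call held with DESeq2 (0.0190), and it was lost when each cell was gated on its own markers (0.172) and at a coarser clustering (0.0793). Fits without a library leave 1 library in a group, so they do not test the call. Tnfaip3 in artery ECs was at 27.1 and 32.7 CPM in NC and at 28.1 and 49.3 CPM in HFpEF, an overlap with a log2 fold change of 0.46 (SE 0.207, adjusted p = 0.401), and without HFpEF library 2 it was -0.07. Nfkbiz was at 220 and 171 CPM in NC and at 165 and 139 CPM in HFpEF, both HFpEF libraries lower, a log2 fold change of -0.37 (SE 0.152, adjusted p = 0.364). The other 7 members lay between -0.59 and 0.04. Of these, Nfkb2, Relb, Nfkbia and Traf1 were also lower in both HFpEF libraries, and Nfkb1 was higher in both. Nfkb2, for instance, was at 40.9 and 31.7 CPM in NC and at 26.2 and 30.4 CPM in HFpEF. The share of all genes with such an order was counted in all ECs only.

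Vein ECs, the usual site of leukocyte entry, had 0 of 10 members called against 0.313% of 10221 genes. Tnfaip3 was at 37.1 and 22.5 CPM in NC and at 51.8 and 65.1 CPM in HFpEF (log2 fold change 0.99, SE 0.234, adjusted p = 0.118). Tnf was at 30.3 and 24.4 CPM in NC and at 41.2 and 55.0 CPM in HFpEF (log2 fold change 0.86, SE 0.200, adjusted p = 0.111). For both genes each HFpEF library was above each NC library. The remaining 8 members lay between -0.43 and 0.31. Of these, Nfkb1, Nfkb2, Rela and Birc3 were also higher in both HFpEF libraries, and Traf1 was lower in both. The share of all genes with such an order was not counted in vein ECs, so these orders are not read as a result about the members. In mural cells 0 of 9 tested members were called against 0.453% of 10160 genes, and Traf1 did not pass the count filter. Tnf was at 19.3 and 14.0 CPM in NC and at 21.3 and 38.2 CPM in HFpEF (log2 fold change 1.03, SE 0.280, adjusted p = 0.142), and without HFpEF library 2 it was 0.43. Tnfaip3 was at 15.2 and 31.9 CPM in NC and at 21.3 and 41.2 CPM in HFpEF (log2 fold change 0.52, SE 0.301, adjusted p = 0.591), where NC library 2 was above HFpEF library 1. The other 7 lay between -0.06 and 0.15, and of these Nfkbia alone had no overlap, with both HFpEF libraries lower. Traf1, which was not tested, had the same order as Nfkbia.

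Whether the diet difference itself differed between classes was tested with a class by diet term, the library being kept as a term. Between artery and capillary ECs 2 of 10 members were called, against 2.35% of 11918 genes. The diet difference of Tnfaip3 was lower in artery than in capillary ECs by 0.48 on the log2 scale (estimate -0.48, SE 0.125, adjusted p = 0.0313), and that of Nfkbiz by 0.32 (estimate -0.32, SE 0.0772, adjusted p = 0.0173). Both calls were lost at a finer and at a coarser clustering, with the per-cell gate, with thinned cells and without either HFpEF library, and DESeq2 did not call Nfkbiz (adjusted p = 0.370) and gave no adjusted p for Tnfaip3. The call of Tnfaip3 was also lost without NC library 1 (adjusted p = 0.229) and with a stricter cell filter (0.0765). For Tnf the difference between artery and capillary was 0.02 (SE 0.169, adjusted p = 0.991). Between vein and capillary ECs 0 of 10 members were called, against 0.00907% of 11028 genes, and between mural and capillary cells 0 of 10, against 0.401% of 11469 genes.

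Capillary and artery ECs were made up of different clusters in the 2 diets, which bears on the values of these classes and of all ECs. Cluster 6 (led by Adh1, Aqp1 and Timp4) held 19.7% and 14.8% of the ECs in NC and 2.78% and 1.70% in HFpEF, and cluster 3 (Timp4, Thrsp and Car4) held 17.4% and 22.2% in NC and 7.54% and 3.19% in HFpEF. Cluster 1, led by the heat shock genes Hspa1b and Hspa1a and without a capillary marker among its leading genes, held 2.56% and 2.07% in NC and 15.6% and 17.3% in HFpEF. Cluster 5 (Adamts4, Plaur and Cxcl10), cluster 8 (the interferon genes Ifit3 and Ifit2) and cluster 10 (Pgf, Apln and Ccl2) were gated as capillary likewise. Among artery clusters, cluster 4 (Scgb3a1 and Hey1) held 16.5% and 13.6% in NC and 4.53% and 5.22% in HFpEF, and cluster 2 (Pth1r, Alox12 and Hey1) held 5.64% and 4.76% in NC and 16.3% and 13.5% in HFpEF. The members were therefore also read within each of the 10 named clusters, as a description, since a cluster is built from the same cells.

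Within clusters, Tnf kept the higher HFpEF mean in 10 of 10, and both HFpEF libraries exceeded both NC libraries in 7 of 10. The 3 artery clusters were all among those 7. In cluster 2 Tnf was at 16.1 and 5.75 CPM in NC and at 38.1 and 29.4 CPM in HFpEF, in cluster 4 at 20.8 and 19.0 CPM against 33.7 and 49.2 CPM, and in cluster 9 (Fbln5, Clu and Gja5) at 14.2 and 10.3 CPM against 19.5 and 28.4 CPM. The 3 clusters with overlap were capillary clusters 1, 5 and 10, those in which NC levels of Tnf were highest. Tnfaip3 also had the higher HFpEF mean in 10 of 10 clusters. It had no overlap in 6, namely artery clusters 2, 4 and 9, the vein cluster and capillary clusters 5 and 6. Its means went from 8.46 to 19.5, 25.2 to 53.5 and 44.1 to 51.6 CPM in clusters 2, 4 and 9. In clusters 5 and 6 they went from 60.9 to 79.5 and 26.7 to 38.3 CPM, and in the capillary sum from 26.8 to 48.4 CPM. Nfkb1 likewise had the higher HFpEF mean in 10 of 10 clusters, with no overlap in 6. Nfkbia went the other way, with a higher HFpEF mean in 1 of 10 clusters and both HFpEF libraries below NC in 4, all of them capillary (3, 6, 8 and 10). Summed over a class, however, Nfkbia overlapped in capillary ECs and was lower without overlap in artery ECs. In artery ECs it was at 1746 and 1627 CPM in NC and at 1385 and 1537 CPM in HFpEF. Nfkbiz had a higher HFpEF mean in 1 of 10 and was lower without overlap in 3 (capillary clusters 5, 6 and 8). The clusters of a library share its cells and its handling, so these counts are not independent.

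**Figure D3:**
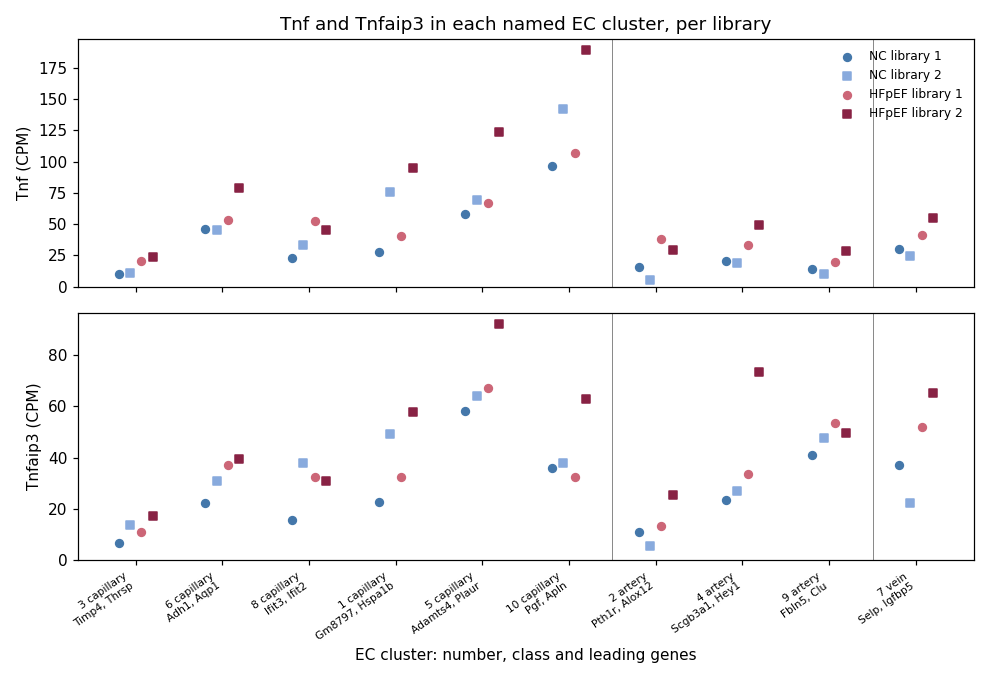
Tnf (top) and Tnfaip3 (bottom) in each of the 10 named EC clusters, in CPM with a point per library; the horizontal axis gives the cluster number, its class and its leading genes, and vertical lines part capillary, artery and vein clusters. Tnf runs from a mean of 16.3 CPM in cluster 3 to 133 CPM in cluster 10, and the dark red squares of HFpEF library 2 are the highest points in most clusters.

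The clusters also differed widely among themselves. The mean of Tnf over the 4 libraries ran from 16.3 CPM in cluster 3, a capillary cluster led by Timp4 and Car4, to 133 CPM in cluster 10, which was led by Pgf and Apln and had Tnf among its leading genes (8.17-fold). Tnfaip3 ran from 12.3 CPM in cluster 3 to 70.2 CPM in cluster 5 (5.73-fold), and Nfkbiz from 62.4 CPM in cluster 3 to 282 CPM in the vein cluster (4.51-fold). The subunits Rela and Nfkb1 ran over 1.46-fold and 1.63-fold, with their highest means, 92.9 and 95.3 CPM, in artery cluster 9. Nfkb2 and Relb ran over 2.68-fold and 2.29-fold and were highest in cluster 10, at 65.0 and 70.5 CPM. Cluster 3 thus held the lowest mean of 6 members (Nfkb2, Nfkbia, Tnfaip3, Nfkbiz, Birc3 and Tnf).

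The balance of the arms was read as the summed CPM of the 3 feedback inhibitors over that of the 4 subunits, in each library. In all ECs inhibitors exceeded subunits 7.85-fold and 7.20-fold in NC and 6.80-fold and 6.63-fold in HFpEF. Both HFpEF libraries were below both NC libraries, by a mean of 0.16 on the log2 scale (difference -0.16), and the same order held in capillary (-0.18), artery (-0.15) and mural cells (-0.10). In vein ECs the diets overlapped (9.48 and 7.61 in NC, 8.62 and 7.88 in HFpEF). No test was made, since 2 libraries against 2 cannot give a two-sided permutation p below 0.333. This ratio is mostly Nfkbia, which supplied 80.6% to 89.1% of the inhibitor CPM, and with each gene given equal weight on a log2 scale the difference took the opposite sign in every class (0.04 to 0.24).

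Tnfaip3 taken alone moved against the sum. In all ECs it stood at 0.113 and 0.141 of the subunit CPM in NC and at 0.161 and 0.226 in HFpEF, a log2 difference of 0.60 with no overlap. Capillary (0.73) and vein ECs (0.83) also had HFpEF above NC in every pair of libraries, whereas artery (0.38) and mural cells (0.37) had overlap. Nfkbia alone over the subunits was lower in HFpEF without overlap in all ECs (-0.18), capillary (-0.20), artery (-0.15) and mural cells (-0.15). Nfkbiz alone overlapped in every class.

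**Figure D4:**
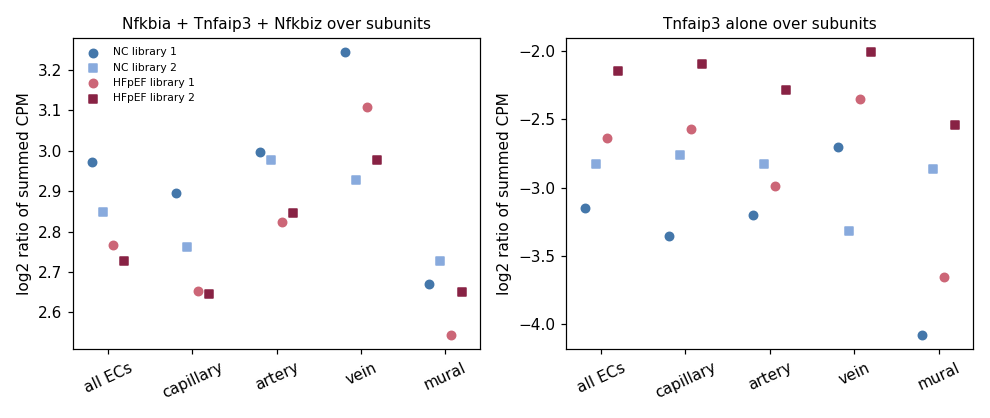
Log2 ratio of the summed CPM of Nfkbia, Tnfaip3 and Nfkbiz over that of Nfkb1, Nfkb2, Rela and Relb (left) and of Tnfaip3 alone over the same subunits (right), with a point per library in all ECs and 4 cell classes; the vertical axes do not start at 0. On the left the red HFpEF points lie below the blue NC points except in vein ECs, and on the right they lie above them in all ECs, capillary and vein ECs.

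Tnf and Traf1 differed between classes of the same library. Relative to the capillary class as a whole, Tnf was lower in 4 of 4 libraries in artery ECs (mean log2 ratio -1.20, SD 0.422, n = 4), in vein ECs (-0.62, SD 0.304) and in mural cells (-1.33, SD 0.266). Traf1 was higher in 4 of 4 libraries in artery ECs (1.47, SD 0.382), vein ECs (1.93, SD 0.236) and mural cells (1.02, SD 0.341), with capillary levels of 0.987 to 1.76 CPM. Vein ECs held more Nfkbiz (0.87, SD 0.230) and more Nfkbia (0.39, SD 0.204) than capillary ECs in 4 of 4 libraries. In artery ECs Nfkb1, Rela, Nfkbia and Traf1 were higher, and Nfkb2, Relb, Birc3 and Tnf lower, in 4 of 4 libraries. In all, 4 members were higher and 4 lower in artery ECs, 5 higher and 1 lower in vein ECs, and 3 higher and 2 lower in mural cells. Of all genes with enough counts, 35.6%, 27.0% and 37.3% were higher and 15.5%, 15.6% and 21.0% lower in 4 of 4 libraries, in artery, vein and mural cells.

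Tnf had the clearest pattern over the classes. With the UMIs of the 4 libraries added up, it stood at 227 CPM in immune cells (345 UMIs), 137 CPM in proliferating ECs, 66.9 CPM in capillary, 38.1 CPM in vein, 25.7 CPM in artery and 23.7 CPM in mural cells. In fibroblasts 3 UMIs were seen. Lymphatic ECs held 0 Tnf UMIs among 437339, which allows up to 6.86 CPM, and endocardial cells 0 among 792301, which allows up to 3.79 CPM. Capillary ECs were above vein ECs in each of the 4 libraries, artery and mural cells had no fixed order, and the immune cells ranged from 110 to 612 CPM on 19 to 201 cells per library. The immune sums also held 2191 to 2580 CPM of the 6 endothelial markers. Endocardial cells, the lining of the ventricle, nevertheless held the highest Nfkbiz level among the endothelial classes, 425 to 853 CPM over the 4 libraries on 12 to 56 cells each.

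**Figure D5:**
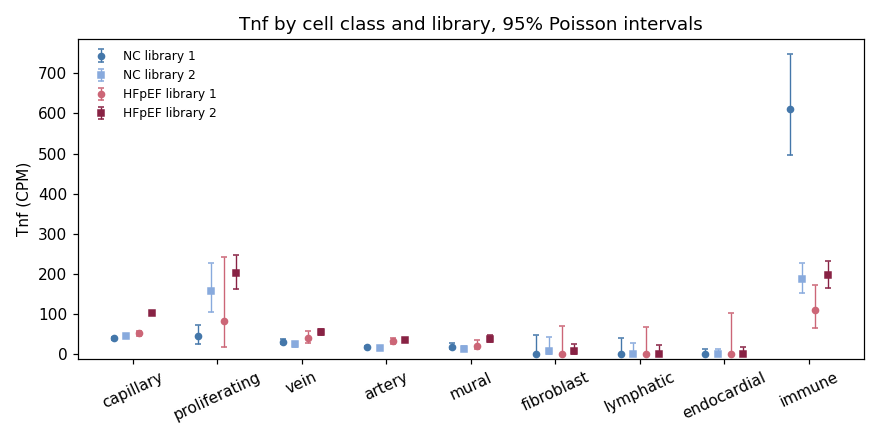
Tnf in each cell class in CPM, with a point per library and exact 95% Poisson intervals (bars), which cover counting error only. Immune cells lie highest in 3 of 4 libraries (proliferating ECs in HFpEF library 2). Capillary ECs taken as a class, though not in each cluster, lie above vein, artery and mural cells. Lymphatic and endocardial cells are at 0 in all 4 libraries.

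The likeness of expression patterns was described over 16 sums (4 libraries and 4 classes, each gene centred within its class) as Pearson's r among 8063 genes, with no test, because the sums share libraries and depth. The 5 genes most like Nfkbia were Pkd1 (0.908), the subunit gene Nfkb2 (0.901), Slc38a2 (0.875), Slc3a2 (0.868) and Pdlim7 (0.867). The 5 most like Tnfaip3 were Higd1a (0.946), Hnrnpc (0.944), G3bp1 (0.944), Hnrnpab (0.940) and Rbm15b (0.934). Tnfaip3 had an r of 0.705 with Tnf and 0.703 with Birc3, which ranked only 426 and 428 among the 8063 genes. Its r was 0.065 with Nfkbia and -0.211 with Nfkbiz. Nfkbia and Nfkbiz had an r of 0.575 with each other, where Nfkbiz ranked 354 in likeness to Nfkbia.

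The rest of the pathway was counted from lists of other subunits and IκB genes, kinases and scaffolds, TRAF and LUBAC ligases, deubiquitinases, receptors and ligands. Of these 62 genes 59 were tested in all ECs, and 0 were called by edgeR. At an unadjusted p under 0.05, 11 were higher and 3 lower in HFpEF, against 18.8% of all genes in either direction, and DESeq2 called 2, both higher. Both HFpEF libraries lay above NC for 16 of the 59 tested and below it for 11, against shares of 23.4% and 27.8% over all genes. The pair called by DESeq2 were Nfkbid and Tnfrsf12a. Nfkbid, another nuclear IκB, was at 8.29 and 9.65 CPM in NC and at 12.6 and 19.6 CPM in HFpEF (log2 fold change 0.90, adjusted p = 0.135 by edgeR). Tnfrsf12a, the receptor of the cytokine TWEAK, was at 40.7 and 43.2 CPM in NC and at 61.5 and 87.4 CPM in HFpEF (0.85, adjusted p = 0.116). Its ligand gene, Tnfsf12, was at 123 and 127 CPM in NC and at 101 and 91.8 CPM in HFpEF (-0.36, adjusted p = 0.162).

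In the same lists Rel, the subunit not among the members, was at 25.3 and 26.5 CPM in NC and at 35.3 and 37.7 CPM in HFpEF (log2 fold change 0.51, adjusted p = 0.109). Of the kinases of the receptor complexes, Ripk1 was at 82.8 and 79.5 CPM against 105 and 109 CPM (0.41, adjusted p = 0.131) and Ripk2 at 14.9 and 14.4 CPM against 20.6 and 20.5 CPM (0.50, adjusted p = 0.129). The diets did not overlap for these 3 genes. Tradd, an adaptor of the TNF receptor, was lower without overlap (-0.41, adjusted p = 0.248). At most 3 genes were named per list. Among them, smaller differences without overlap, between -0.12 and 0.38, were seen for Chuk, Map3k8, Otulin, Tank, N4bp1, Tlr3 and Myd88, of which Otulin alone was lower. The following genes were named after their values were seen. Lower without overlap were Traf5 (-0.25), Sharpin (-0.25), Rbck1 (-0.11), Tnfrsf1a (-0.15), Il1r1 (-0.20) and Ltbr (-0.18), and Traf6 was higher (0.30). Below a mean of 10 CPM, Traf3 (0.39), Tlr4 (0.57), Tnfrsf11a (0.55) and Il1a (1.70) were higher without overlap. Tab1 (-0.66) and Ticam1 (-0.44) were lower.

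Known NF-κB targets outside the members were counted in the same way. Of 19 listed, 18 were tested and 0 called by edgeR. At an unadjusted p under 0.05, 9 were higher and 1 lower, against 18.8% of all genes in either direction. DESeq2 called 5, all higher, and 298 of all genes. Both HFpEF libraries lay above NC for 10 of the 18 and below it for 1, against 23.4% and 27.8% of all genes. The median log2 fold change of the targets was 0.40, against -0.004 over all genes tested. The list was chosen with earlier results of these data known, so its counts and median do not test the pathway. Il6, a cytokine, was at 10.0 and 11.3 CPM in NC and at 20.4 and 51.6 CPM in HFpEF (log2 fold change 1.82, adjusted p = 0.122). Cxcl10, a chemokine for T cells, was at 76.6 and 114 CPM against 196 and 216 CPM (1.13, adjusted p = 0.101), and Plaur, the urokinase receptor, at 70.4 and 53.8 CPM against 113 and 142 CPM (1.05, adjusted p = 0.101). Of the adhesion molecule genes, Vcam1 (0.13, adjusted p = 0.515) and Icam1 (0.16, adjusted p = 0.596) overlapped, and Sele was higher without overlap (1.54, adjusted p = 0.157). Bcl2l1 was lower without overlap (-0.79, adjusted p = 0.167). Immediate early genes, which respond to tissue handling as well as to signals, had a median of 0.11, with 3 of 19 higher at an unadjusted p under 0.05. All 6 heat shock genes were higher at that level, with a median of 1.15, led by Hsph1, Hspa1b and Hspa1a (2.03, 1.74 and 1.51), and 0 of them were called by edgeR and 5 by DESeq2. Both HFpEF libraries lay above NC for 8 of the 19 immediate early genes and below it for 3, against 23.4% and 27.8% of all genes. Among them, Myc and Egr3 were higher (1.32 and 0.57) and Btg2 was lower (-0.42).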

How the data were processed

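Each of the 4 libraries held sorted RFP-positive cells of the left ventricle, sequenced with 10x Genomics Single Cell 3′ V3 kits. The authors trimmed the reads with fastp and counted UMIs with Cell Ranger 5.0.1 on mm10, per the submitters' processing notes, and the study describes a downsampling of reads between samples. The deposited counts are whole UMI counts per gene and cell, not divided by library size, and still include cells outside the study's filter, so that filter (over 200 genes, under 20% mitochondrial UMIs) was applied again. No column of another series was present. Groups came from the labels.

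Each cell was brought to a total of 10000 on a log scale, and Louvain clustering (2000 variable genes, 10 components, 20 neighbours, resolution 0.8, seed 1) ran on all cells and then on ECs. The members, the other listed genes, Scarb1, hemoglobin and mitochondrial genes were kept out of the variable genes. A cluster was named from its mean log2 marker excess over the median cluster (3 for most types, 1.75 for artery and vein). A capillary, artery or vein cluster stayed unnamed under either of these conditions. In at least 1 library its median UMIs were below those of the library divided by 3, with no marker of its own among the 10 leading genes. Or markers of another class outnumbered its own among those genes. These thresholds were set on the data. Leading genes were read over cells under 1% hemoglobin UMIs. Doublets were kept.

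Sums per library and class were tested with edgeR 4.0.16 in R 4.3.3 (quasi-likelihood, TMM, filterByExpr, Benjamini-Hochberg over all genes tested), with diet as the term, or library, class and class by diet for the difference between classes. The study tested single cells as replicates, which was not repeated. DESeq2 1.42.0 was an alternative. Log2 ratios between classes used a prior of 1 CPM. The other steps used Scrublet in scanpy 1.11.5, python-igraph 0.11.9, scikit-learn 1.9.0, pandas 2.3.3, numpy 2.4.6, matplotlib 3.10.9 and scipy 1.17.1 under Python 3.11.15. Scripts were tested on simulated data. Intervals are exact (95%, Poisson or Clopper-Pearson), and intervals and floors (3 counts) cover counting error only. Promoters came from RefSeq on GRCm38.p6 and gene positions from GENCODE on GRCm38.

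The members and lists were chosen with earlier results of these data known. All 10 members are named. From the lists, called genes and up to 3 per list with the largest log2 fold change, a mean of at least 10 CPM and no overlap between the diets are named. Other list genes were named after their values were seen. For likeness, the 5 genes with the highest r to Nfkbia and to Tnfaip3 are named. Alternatives changed the normalization, test, count filter, replicate block, libraries, gate, resolution, cell filter, depth, doublets, hemoglobin-rich cells, prior and the make-up of the arms. Counting the unnamed clusters as capillary, mural cells with at most 1 Pecam1 or Cdh5 UMI, and alternatives of the class by diet test were chosen after seeing the data. Genotypes were not compared, since no library was assigned to one.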

Additional observations from a re-analysis of the deposited data

Results flagged for a closer look

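On class sums, the diet differences of Tnfaip3 and Nfkbiz themselves differed between artery and capillary ECs, by the class by diet term of edgeR. For Tnfaip3 the difference in artery ECs minus that in capillary ECs was -0.48 on the log2 scale (SE 0.125, adjusted p = 0.0313), where NC stood at 27.1 and 32.7 CPM and HFpEF at 28.1 and 49.3 CPM in artery ECs, against 22.5 and 31.1 CPM and 37.1 and 59.7 CPM in capillary ECs. For Nfkbiz it was -0.32 (SE 0.0772, adjusted p = 0.0173), where NC stood at 220 and 171 CPM and HFpEF at 165 and 139 CPM in artery ECs, against 179 and 134 CPM and 153 and 141 CPM in capillary ECs. The estimates kept their sign under all alternatives run, from -0.59 to -0.22 for Tnfaip3 and from -0.39 to -0.12 for Nfkbiz. The calls did not hold under several of them, with adjusted p-values of up to 0.971 for both genes with the per-cell gate. The share of ECs in artery and capillary clusters also differed between the diets, and its part in these differences was not tested. Within clusters, mean Tnfaip3 went from 8.46 to 19.5, 25.2 to 53.5 and 44.1 to 51.6 CPM in artery clusters 2, 4 and 9. In capillary clusters 6 and 8 it went from 26.7 to 38.3 and 26.9 to 31.7 CPM. Nfkbiz had the lower HFpEF mean in every capillary and artery cluster, for instance 183 to 145 CPM in capillary cluster 6 and 153 to 123 CPM in artery cluster 2.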

How the results depend on the processing

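With 2 libraries a diet, calls rested on few degrees of freedom, and counts of calls moved more than the values did. The number of genes called between the diets in all ECs was 9, and was 298 with DESeq2, 735 with no filter on low counts, 45 with thinned cells, 1 with the per-cell gate and 46 to 169 without a library. Members called in all ECs numbered 0, and 2 with DESeq2 and with no filter, and 0 to 2 without a library. In capillary ECs they numbered 0, and 1 with DESeq2, 2 with no filter and 2 with thinned cells (0 to 2 without a library). In artery ECs 1 was called, and 0 at resolution 0.5 and with the per-cell gate. In vein ECs 0 were called, 1 at resolution 0.5 and at 1.2, 2 with no filter, and 0 to 2 without a library. In mural cells 0 were called, 1 with no filter, and 0 to 1 without a library. Without HFpEF library 1 the members called were 2 in all ECs, 2 in capillary, 2 in vein and 1 in mural cells.

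The labels do not say what the library numbers mark. Deviations from the group means of libraries with the same number correlated at -0.0920 to 0.0631 over genes. With so few libraries this does not settle whether the numbers mark a shared batch or genotype, and they were not taken as a pairing. With a replicate block on these numbers, 21 genes were called in all ECs, and 2 members in capillary, 1 in vein and 1 in mural cells, the members called in other classes being as without it. The share of all genes called with the block in those 3 classes is not given here.

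For the difference between artery and capillary ECs, 2 members were called, and 1 with the stricter cell filter. The number was 0 with DESeq2 (which gave no adjusted p for Tnfaip3), at resolution 0.5, at resolution 1.2, with the per-cell gate and with thinned cells. Between vein and capillary ECs 0 were called, and 1 at resolution 1.2.

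Log2 fold changes with a sign that turned were small or rested on a library. In all ECs, Relb was -0.0087 with DESeq2 and with no filter, -0.0061 at resolution 1.2, -0.048 at resolution 0.5, -0.016 with the replicate block, -0.0033 with the unnamed clusters, and -0.21 to 0.16 without a library. Without a library, Nfkb2 ran from -0.27 to 0.15, Nfkbia from -0.22 to 0.016 and Nfkbiz from -0.40 to 0.11, the highest being without NC library 1 each time. Tnfaip3 ran from -0.066 to 0.70 in artery ECs and from -0.16 to 1.19 in mural cells. For the 28 values given as ranges, the sign changed in 51 of 428 settings, in 48 of them with the value within 1 SE of 0, and 0 were called.

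For the ratio of inhibitors to subunits, the mean of log2 values per gene gave a difference of 0.092 in all ECs, 0.14 in capillary, 0.039 in artery, 0.24 in vein and 0.10 in mural cells. In artery ECs it was 0.090 at resolution 0.5, -0.14 with Nfkbia and Tnfaip3 alone, -0.083 with the per-cell gate, -0.14 with the stricter filter and -0.096 with thinned cells, and in mural cells -0.034 with thinned cells. The log2 ratio of artery to capillary ECs turned to 0.027 for Birc3 and 0.048 for Nfkb2 with the per-cell gate, and that of vein to capillary ECs to -0.14 for Relb with thinned cells. Members higher than capillary in every library numbered 5 with the per-cell gate and 1 with thinned cells in mural cells (3 as reported), and 2 at resolution 1.2 in vein ECs (5). Members lower in every library numbered 2 at resolution 0.5 and 1 with the per-cell gate in artery ECs (4), 4 at resolution 0.5 and 1 with thinned cells in mural cells (2), and 2 at resolution 0.5 and 1 to 2 without a library in vein ECs (1). The causes of these changes were not tested, and shallow classes limit the counts for Traf1, which had 3 to 14 UMIs per library in mural cells.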

Other observations

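The cells left unnamed had a median of 815 to 1024 UMIs. Tnf stood at 4.52 and 19.2 CPM in their NC sums and at 35.2 and 44.4 CPM in their HFpEF sums, and Nfkbia at 824 and 717 CPM against 962 and 995 CPM, both HFpEF libraries higher for both genes. In all ECs Nfkbia had the opposite order of means. Counted with the capillary ECs, these cells left the log2 fold change of Tnf in all ECs at 0.88 and that of Tnfaip3 at 0.66.

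In immune cells, which the sort for RFP should leave out, Tnfaip3 stood at 219 and 89.1 CPM in NC and at 183 and 135 CPM in HFpEF, and Traf1 at 25.8 and 30.3 CPM in NC and at 36.5 and 57.7 CPM in HFpEF. These sums rest on 19 to 201 cells per library and were not tested. The 6 endothelial markers summed to 2191 to 2580 CPM in them, so the values contain endothelial transcripts to an extent that was not tested. The 5 neutrophil markers summed to 58.0 CPM in NC library 1 and to 4854 to 10427 CPM in the other libraries, so the mix of immune cells differed.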
